A study of Mus musculus with 12 samples.

Results

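Loss of SAMHD1 was studied in peritoneal macrophages of mice by setting 3 Samhd1 knockout libraries (Samhd1 KO) against 3 wild-type libraries (WT). A gene was compared when 3 or more of the study's 12 libraries held at least 10 normalized reads of it, which gave 13231 of 15721 genes. The Samhd1 KO and WT libraries are labelled female C57BL/6, with an age, given without a unit, of 19, 18 and 16 in Samhd1 KO and of 16 in every WT library. The other 6 libraries came from Samhd1 Cardif dKO and Samhd1 Sting dKO mice, 3 each, labelled as lacking Samhd1 together with Cardif (another name of Mavs, an adaptor of RNA sensing) or Sting (an adaptor of DNA sensing). They are also labelled C57BL/6, with an age of 18, 18 and 16 where Cardif is missing and 24, 16 and 18 where Sting is, and all are labelled female but Samhd1 Cardif dKO replicate 1, which is labelled male. They entered the fit as further groups, so that the spread was estimated over all 12 libraries. Macrophages were purified by cell sorting and messenger RNA was read by strand-specific sequencing. The labels number the libraries of a genotype without saying that each came from its own mouse, so the p-values measure the spread between these libraries, which may be technical.

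SAMHD1 is a phosphohydrolase that breaks down deoxynucleotides and limits the nucleic acid that builds up inside a cell. In people, its loss causes Aicardi-Goutières syndrome, an inherited inflammatory disease with constant type I interferon signalling. Interferon binds its receptor, JAK kinases activate STAT proteins, and with IRF9 these bind an interferon-stimulated response element (ISRE) in front of antiviral genes. The unfolded protein response is a separate programme: the sensors IRE1, PERK and ATF6 in the membrane of the endoplasmic reticulum (ER) raise chaperones when proteins there fail to fold, and secretory cells keep it partly active. Large macrophages of the peritoneal cavity are long-lived resident cells that need the transcription factor GATA6.

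Between 21953731 and 28675866 reads were counted in Samhd1 KO and between 24311188 and 32204657 in WT. Levels below are normalized reads, the reads of a gene divided by 1 size factor per library. Changes are log2 values, Samhd1 KO minus WT, of normalized reads plus 1, with their standard error (SE) and Benjamini-Hochberg adjusted p from limma. A gene was called at an adjusted p under 0.05. The resident macrophage identity was clear in both groups: Gata6 had 3829, 3134 and 4414 normalized reads in Samhd1 KO, against 3479.7, 3496 and 4096 in WT, and Timd4, a phosphatidylserine receptor of resident macrophages, had 19675, 18447 and 16406 normalized reads in Samhd1 KO, against 20430.1, 16634 and 23403 in WT. Neither differed beyond the spread (Gata6 log2 0.03, adjusted p = 0.925; Timd4 log2 -0.14, adjusted p = 0.742). In bulk RNA, fewer cells of a type and less RNA per cell cannot be told apart.

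Samhd1 itself had 6188, 7816 and 5555 normalized reads in Samhd1 KO, against 11525, 10113 and 10644 in WT. All Samhd1 KO libraries lay below all WT libraries (log2 -0.74, SE 0.167, adjusted p = 0.0305), but the gene was still read in the knockout. In the dKO groups Samhd1 averaged 3613 (Cardif) and 3683 (Sting), beside 6519.6 in Samhd1 KO, so it was read in every library labelled as lacking it. The call was lost without Samhd1 KO replicate 1 or 3 or any 1 WT library, with log2 values from -0.87 to -0.63 over the fits that left out 1 library each.

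A small part of the transcriptome differed between Samhd1 KO and WT. Of the 13231 genes, 572 were called (4.32%), 358 of them higher (2.71%) and 214 lower (1.62%). The median change of all genes was 0.00. Of the called genes, 137 changed over 2-fold (1.04% of all genes), 96 higher (0.726%) and 41 lower (0.31%). Type I interferon response genes were prominent among the higher genes, and genes of protein folding in the ER among the lower ones. The number of calls depended on single libraries, with 248 and 277 without Samhd1 KO replicate 2 or 3, and 289, 273 and 185 without WT replicate 1, 2 or 3. It also fell to 60 with the B cell marker score of each library as a covariate, and DESeq2 called 1074.

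**Figure D1:**
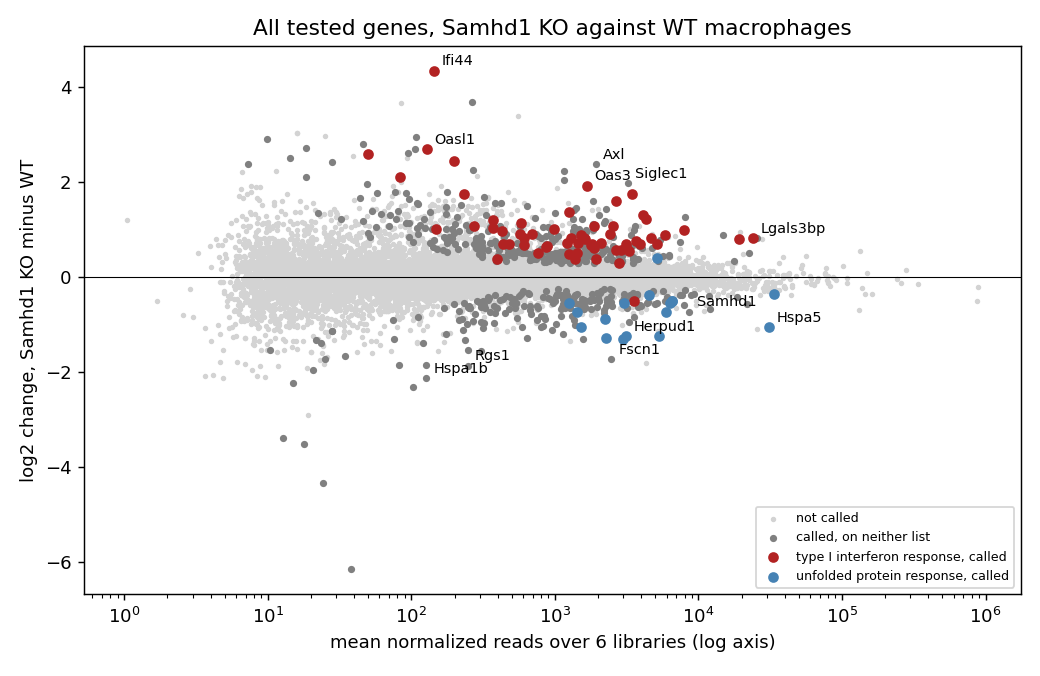
Log2 change (Samhd1 KO minus WT, vertical axis) against mean normalized reads over the 6 libraries (log axis), 1 point per tested gene. Called type I interferon response genes (red) lie mostly above 0, with Ifi44 at 4.33, and called unfolded protein response genes (blue) mostly below, with Herpud1 at -1.25.

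Interferon response genes were higher in Samhd1 KO. Of 100 tested genes on the list of type I interferon response genes, 60 were called higher and 1 lower, beside 2.71% and 1.62% of all genes, and their median change was 0.69. For 80 of the 100 the lowest Samhd1 KO library exceeded the highest WT library, against 13.8% of all genes. The genes of type I interferons themselves were not analysed here. Of the 60 rises, 28 were called in every one of the 12 fits that left out 1 library. The count was 31 and 38 without Samhd1 KO replicate 2 or 3, and 35 and 32 without WT replicate 2 or 3. With the B cell score as a covariate 22 genes were called, and the median change was then 0.83.

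Along the signalling chain, a minority of each list was called. Irf7, which amplifies interferon production, had 5418, 6000.4 and 4338 normalized reads in Samhd1 KO, against 1884, 1115 and 1789.8 in WT. Its lowest Samhd1 KO library was above the highest WT library (log2 1.74, SE 0.230, adjusted p = 0.00339). Of 16 genes of interferon receptors, JAK kinases and STATs, 3 were called higher (18.8%, beside 2.71% of all genes). Among them Stat2 (0.90) and Stat3 (0.41) were each called in only 2 or 3 of the 12 fits without 1 library. The remaining 1 of the 3 was called in all 12, and 0 of the 3 were called with the B cell score as a covariate. The receptor genes Ifnar1 and Ifnar2 stood at -0.12 and -0.11 and were not called. Of 8 interferon regulatory factors Irf7 alone was called (12.5%), and Irf9 stood at 0.35 (adjusted p = 0.16). Of 17 brakes on interferon signalling 1 was higher (5.88%). It was Usp18, a protease that removes ISG15 and blocks the receptor (log2 1.04, SE 0.254, adjusted p = 0.0416), with the call kept in 4 of those 12 fits.

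Sensors and nucleases of self nucleic acid rose in part. Of 31 sensors and adaptors 5 were higher: Ddx58, which encodes the RNA sensor RIG-I (0.80), Zbp1, a sensor of Z-form nucleic acid that can start cell death (1.36), Dhx58 (0.71), Ifih1, which encodes MDA5 (0.51), and Tmem173, which encodes STING (0.49). Mavs, which encodes the adaptor of RIG-I and MDA5, stood at 0.08 (adjusted p = 0.705). Of 18 nucleases and editors 2 were higher, the cytosolic DNA exonuclease gene Trex1 (0.60) and the RNA editing gene Adar (0.56). Both gave way in fits without 1 library, Trex1 without Samhd1 KO replicate 2 or WT replicate 2, and Adar without Samhd1 KO replicate 2 or 3.

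Antiviral effectors were among the largest rises. Ifi44, a gene induced by interferon and viral infection, had 328, 331 and 166 normalized reads in Samhd1 KO, against 16.1, 7.64 and 14.1 in WT. The groups were far apart (log2 4.33, SE 0.494, adjusted p = 0.00259), with Samhd1 KO replicate 3 the lowest of the knockouts. Oas3, a synthetase of the oligoadenylates that activate RNase L, had 2598, 2689 and 2578 normalized reads in Samhd1 KO, against 895, 453 and 828 in WT. Its 3 knockout values lay close together and all above WT (log2 1.91, SE 0.240, adjusted p = 0.00259). Rsad2, which encodes the antiviral enzyme viperin, had 439, 318 and 316 normalized reads in Samhd1 KO, against 141, 78.3 and 106 in WT, again without overlap (log2 1.74, SE 0.291, adjusted p = 0.00844). Lgals3bp, a secreted glycoprotein induced by interferon, had 31318, 29978 and 30596 normalized reads in Samhd1 KO, against 18759, 15648 and 18146 in WT, with tight groups (log2 0.81, SE 0.0941, adjusted p = 0.00259). Oasl1 rose by 2.69, Parp14, an ADP-ribosyltransferase, by 0.81, and Eif2ak2, which encodes the RNA-activated kinase PKR, by 0.83. Mx1 (1.26, adjusted p = 0.0501) and Ifit1 (1.75, adjusted p = 0.0565), classical members of the list, narrowly missed the threshold, although no knockout library overlapped WT. The only fall on the list was Ifi27l1 (log2 -0.50, SE 0.110, adjusted p = 0.027), whose relatives Ifi27l2a (1.31) and Ifi27l2b (1.29) rose.

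**Figure D2:**
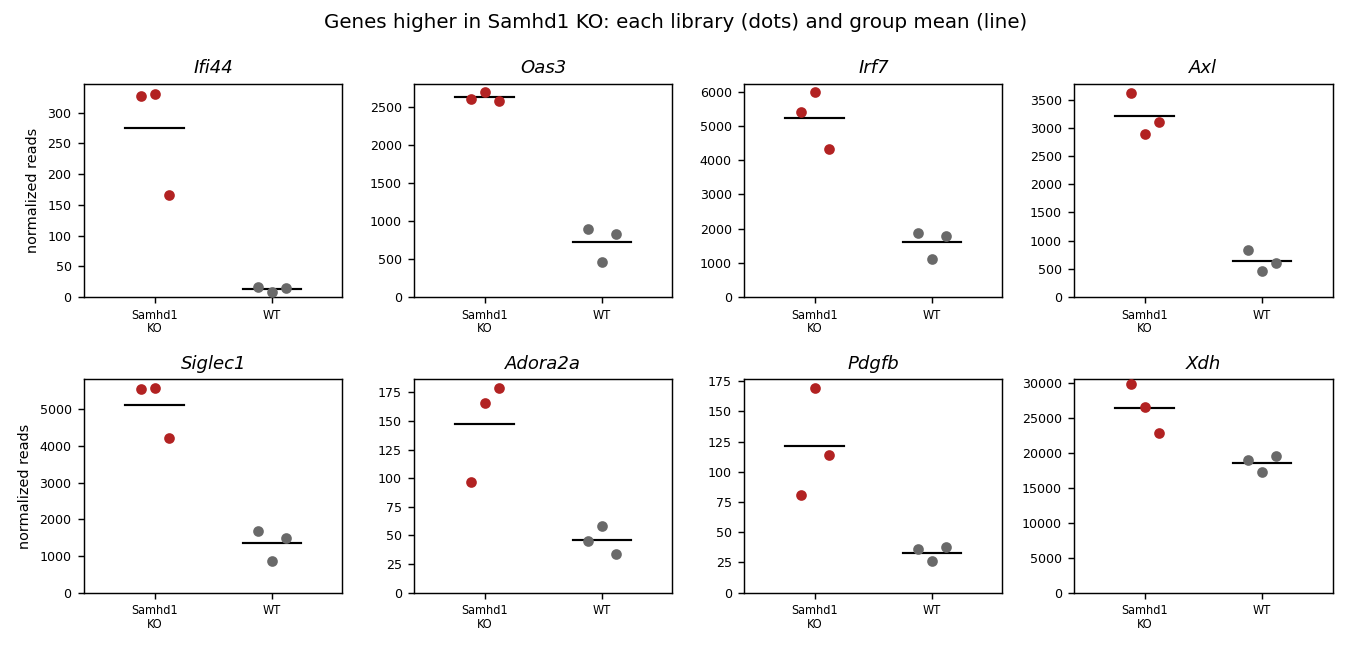
Normalized reads (vertical axis, from 0) of 8 genes that were higher in Samhd1 KO, with 1 dot per library and a line at the group mean, Samhd1 KO left of WT. No knockout library overlapped a WT library in any of the 8 genes, and the rise ran from log2 0.50 in Xdh to 4.33 in Ifi44.

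Promoters of 4 of these genes are shown because each holds a match to the ISRE. The windows come from RefSeq promoters on GRCm38.p6, which run from 250 bases before to 50 bases after each gene's start. Capitals mark matches to the ISRE, written as TTTC, any 2 bases and TTTC, on either strand, and each sequence is given 5′ to 3′ on the strand of its gene.
Oas3: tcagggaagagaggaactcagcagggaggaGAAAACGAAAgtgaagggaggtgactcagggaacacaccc
Rsad2: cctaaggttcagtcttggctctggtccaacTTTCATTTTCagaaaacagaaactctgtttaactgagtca
Ifit3: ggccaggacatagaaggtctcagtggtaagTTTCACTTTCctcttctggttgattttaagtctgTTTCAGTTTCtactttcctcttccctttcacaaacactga
Isg15: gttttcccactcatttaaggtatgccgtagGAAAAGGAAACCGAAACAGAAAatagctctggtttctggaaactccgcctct
The Oas3 window is chr5:120777695-120777764 on the minus strand, with the match 75 bases before the start. The Rsad2 window is chr12:26456533-26456602 on the minus strand, with the match 120 bases before the start. The Ifit3 window is chr19:34583343-34583446 on the plus strand and holds 2 matches. The Isg15 window is chr4:156200845-156200926 on the minus strand and holds 3 overlapping matches. A promoter was found for 83 of the 100 interferon response genes, and 36 of these held the motif (43.4%), against 1131 of all 32851 promoters (3.44%). It was in 21 of 50 called genes (42.0%) and in 15 of 33 that were not called (45.5%). The match is a description of these letters, and no use of the site was measured.

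Gene families with neighbouring members were also higher. Of 11 tested genes of the p200 family, interferon-inducible proteins that include DNA sensors, 8 were called higher, with a median change of 0.88. Of the 8, 4 were called in every fit without 1 library, and 4 with the B cell score as a covariate. E030037K03Rik, now named Ifi213, had 609.9, 469 and 365 normalized reads in Samhd1 KO, against 75.7, 13.4 and 45.2 in WT, the second largest rise among genes averaging at least 50 reads (log2 3.67, SE 0.575, adjusted p = 0.00649). Gm4955, now named Ifi206, had 213, 244 and 111 normalized reads in Samhd1 KO, against 39.8, 9.55 and 28.9 in WT (log2 2.94, SE 0.546, adjusted p = 0.0133), with the call lost without Samhd1 KO replicate 2. Both were low in every WT library and lowest in WT replicate 2. E430029J22Rik, now named Ifi208, rose by 2.80 and Ifi205 by 2.44, while Ifi203 and Mndal rose by 0.69 and 0.69. The promoters of Ifi213 and Ifi206 are shown because the 2 windows are almost the same, each with the ISRE match in capitals:
Ifi213: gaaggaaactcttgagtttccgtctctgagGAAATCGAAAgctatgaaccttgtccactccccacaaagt
Ifi206: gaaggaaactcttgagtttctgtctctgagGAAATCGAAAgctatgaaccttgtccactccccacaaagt
They lie at chr1:173599306-173599375 and chr1:173491319-173491388 on GRCm38.p6, both on the minus strand. The motif was in 8 of the 10 p200 promoters found. Copies as alike as these can share reads, so the split between the genes is uncertain. The list of this family and that of the SP100 family were drawn up after the values were seen.

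All 6 tested entries of the SP100 family, chromatin readers of nuclear bodies, were higher, and each was called in all 12 fits that left out 1 library. Sp140 rose by 0.81, Sp100 by 0.75 and Sp110 by 0.70. A530032D15Rik is entered under 2 identifiers with nearly the same reads, so the 6 entries are not 6 separate genes. Of 8 Schlafen genes 3 were higher, led by Slfn1 (1.43). Of 17 PARP genes 5 were higher and Parp3 was lower (-0.35).

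Interferon-inducible GTPases, which attack the vacuoles of intracellular pathogens, rose with uneven knockout libraries. Of 21 tested, 10 were higher, and the median change was 1.18. Gbp8 had 115, 273 and 107 normalized reads in Samhd1 KO, against 34.1, 21.96 and 17.8 in WT. Samhd1 KO replicate 2 was the highest for Gbp8, and all 3 knockouts were above WT (log2 2.61, SE 0.387, adjusted p = 0.00604). Iigp1 had 1225, 3806.9 and 872 normalized reads in Samhd1 KO, against 519.8, 199.5 and 374 in WT, with replicate 2 again far above the others (log2 2.23, SE 0.517, adjusted p = 0.0333). Without Samhd1 KO replicate 2 the fit called 5 of these genes, and without WT replicate 1, 2 or 3 it called 5, 3 and 3. With the B cell score as a covariate it called 0, beside 60 over all genes.

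Genes of antigen presentation were higher in part. Of 24 genes of MHC class I and peptide loading 8 were higher, with a median of 0.38. H2-Q6, a class Ib molecule, had 2737, 3361 and 2271 normalized reads in Samhd1 KO, against 1127, 869 and 781 in WT (log2 1.59, SE 0.198, adjusted p = 0.00259). The knockouts were all above WT, and H2-Q7 (1.45), the peptide transporter gene Tap1 (1.07) and AI451557, now named Nlrc5 (0.98), which switches on class I genes, behaved likewise. The H2-Q genes are near-identical copies, so their separate values are uncertain. The count was 5 without Samhd1 KO replicate 2 or WT replicate 2 or 3. Of 6 immunoproteasome genes 0 were called by limma, with 3 higher and 1 lower at an unadjusted p under 0.05. Of 14 class II genes 4 were higher, with a median of 0.43, among them Cd74, the invariant chain (log2 1.27, SE 0.269, adjusted p = 0.0235). These 4 calls were lost without Samhd1 KO replicate 2, which was the highest for each, and without any 1 WT library.

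Surface receptors of macrophages moved singly. Axl, a receptor kinase that takes up dying cells and damps interferon responses, had 3624, 2893 and 3093 normalized reads in Samhd1 KO, against 835, 466 and 604 in WT. It was the clearest rise among the 25 efferocytosis and scavenger receptors (log2 2.37, SE 0.288, adjusted p = 0.00259), of which Scarf1 (0.62) and Cd300lf (1.12) were also higher. Siglec1, the sialic acid receptor CD169, had 5571, 5585 and 4223 normalized reads in Samhd1 KO, against 1694, 859 and 1493 in WT. Its groups did not overlap (log2 1.97, SE 0.404, adjusted p = 0.0199), but the call was lost without Samhd1 KO replicate 1 or 2 or WT replicate 2 or 3. Of 35 siglecs, C-type lectins and other surface lectins 2 were higher (5.71%, beside 2.71% of all genes), Siglec1 among them. Another 4 were lower (11.4%, beside 1.62% of all genes): Cd209b (-0.82), Cd209a (-1.28), Clec4g (-1.85) and Siglece (-0.59). Of these 4 falls 0 were called in every fit without 1 library, and 0 with the B cell score as a covariate. The integrin gene Itgb7 (0.89) was higher too, and of 32 genes of integrins and adhesion 4 were higher (12.5%) and 1 lower (3.13%).

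Few chemokine and cytokine genes were called. Of 14 chemokines 0 were higher and 1 was lower, Pf4 (-0.56), which is also a platelet gene. Of 32 cytokines and growth factors 1 was called, Pdgfb, a platelet-derived growth factor chain, with 80.8, 169 and 114 normalized reads in Samhd1 KO, against 36.0, 25.8 and 37.8 in WT. The lowest knockout value was above every WT value (log2 1.79, SE 0.291, adjusted p = 0.00737). Of 35 genes of NF-kB signalling 6 were higher (17.1%, beside 2.71% of all genes), among them Icam1 (1.04) and Bcl3 (1.25), and Birc3 was lower (-0.50). Of the 6 rises Icam1 alone was called in every fit without 1 library, and 0 were called with the B cell score as a covariate. Of 16 Toll-like receptors 0 were called by limma, with 2 higher at an unadjusted p under 0.05. The adenosine receptor gene Adora2a, which restrains macrophage activation, had 96.4, 166 and 179 normalized reads in Samhd1 KO, against 45.4, 58.2 and 34.1 in WT and rose without overlap (log2 1.64, SE 0.280, adjusted p = 0.00873). Xdh, which makes uric acid, rose by 0.50. Cfb and C2, neighbouring complement genes, appeared at 0.81 and 0.82, but the ratio of their reads was 1.04 to 1.05 in every library, so their reads cannot be told apart.

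**Figure D3:**
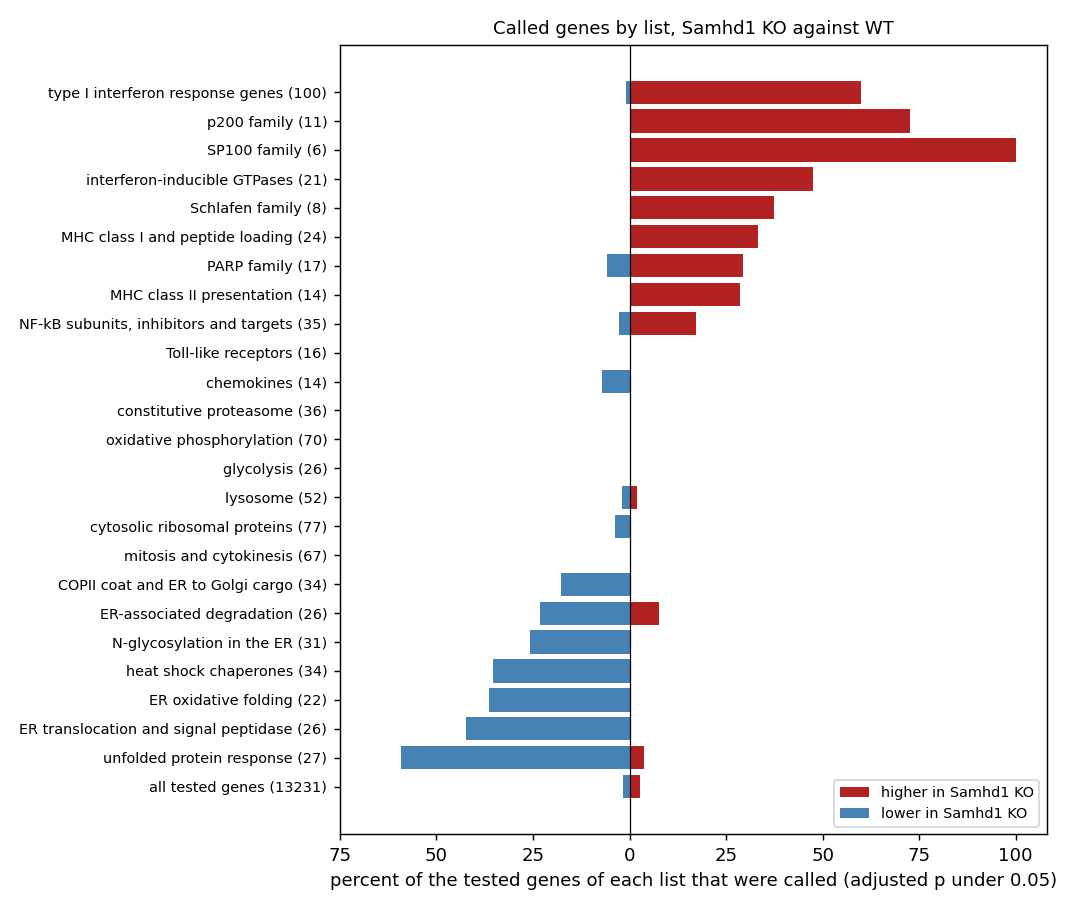
Percent of the tested genes of each list that were called higher (red, right of 0) or lower (blue, left of 0) in Samhd1 KO, with the number tested in brackets. Type I interferon response genes stand at 60.0% higher and unfolded protein response genes at 59.3% lower, beside 2.71% and 1.62% of all genes in the bottom row.

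ER chaperones and other genes of the unfolded protein response were lower in Samhd1 KO. Of 27 tested genes 16 were called lower and 1 higher, beside 1.62% and 2.71% of all genes, and the median change was -0.54. For 24 of the 27 the highest Samhd1 KO library was under the lowest WT library, against 12.9% of all genes. Hspa5, which encodes BiP, the main Hsp70 chaperone of the ER, had 20406, 20848 and 18917 normalized reads in Samhd1 KO, against 37234, 38972 and 50592 in WT. The highest knockout library stood well below the lowest WT library (log2 -1.06, SE 0.136, adjusted p = 0.00279). Herpud1, an adaptor of ER-associated degradation, had 1999, 1831 and 1698 normalized reads in Samhd1 KO, against 3794, 3922 and 5659 in WT and was also clear of overlap (log2 -1.25, SE 0.136, adjusted p = 0.00259). Hyou1, a partner chaperone of BiP, had 2915, 3235 and 3129.5 normalized reads in Samhd1 KO, against 6325, 6265 and 9793 in WT (log2 -1.24, SE 0.186, adjusted p = 0.00617), and WT replicate 3 was the highest of all for these 3 genes.

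Secreted and co-chaperone members fell with them. Manf, a factor that binds BiP, fell by 1.30 on the log2 scale (SE 0.199, adjusted p = 0.00643). Dnajb9, a co-chaperone of BiP that restrains IRE1, stood at -1.27, Creld2 at -1.05, and Syvn1, the ubiquitin ligase of ER-associated degradation, at -0.89. Pdia4, a disulfide isomerase, stood at -0.73, and Hsp90b1, the ER form of Hsp90, at -0.35. Among the sensors and factors, Eif2ak3, which encodes PERK, was lower (log2 -0.73, SE 0.118, adjusted p = 0.00709), and so was Xbp1, the factor that IRE1 activates by splicing (log2 -0.55, SE 0.106, adjusted p = 0.0158). Ern1, which encodes IRE1, was the 1 member that was higher (log2 0.41, SE 0.0738, adjusted p = 0.0116), while Atf6 stood at -0.12 (adjusted p = 0.51). The Ern1 call was not made in every fit that left out 1 library, nor with the B cell score as a covariate. Spliced Xbp1 was not measured. The PERK arm gave no calls further down: Atf4 stood at -0.28 (adjusted p = 0.115), Ddit3, which encodes CHOP, at -0.70 (adjusted p = 0.146), and of 30 ATF4 targets and tRNA synthetases 0 were called by limma, with 2 higher and 3 lower at an unadjusted p under 0.05.

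Of the 16 lower calls, 9 were made again in all 12 fits that left out 1 library, including Hspa5, Herpud1, Hyou1, Manf, Dnajb9, Pdia4, Syvn1 and Eif2ak3. The count was 9 without WT replicate 3, which was the highest WT library in these genes, and 11 to 17 without any other library. Markers of B cells moved with it: of 28 tested, 0 were called by limma and the median was -1.01, with 17 lower at an unadjusted p under 0.05. Their mean log2 level was 4.94 to 5.69 in Samhd1 KO and 5.89 to 6.57 in WT, their summed level was 16023 to 16793 in Samhd1 KO and 17624 to 19880.0 in WT, and defining markers such as Cd79a (95.6, 64.0 and 33.0 normalized reads in Samhd1 KO, against 193, 120.3 and 153 in WT) were low but not at 0. With the B cell score as a covariate 1 gene of the response stayed called, and the median change was -0.42. Hspa5 then stood at -0.87 (adjusted p = 0.0606) and Herpud1 at -1.07 (adjusted p = 0.0378). The part of B cells in the result was not tested further. In Samhd1 Sting dKO, where the mean log2 level of the B cell list was highest (6.94 to 8.003, against 5.89 to 6.57 in WT), the mean of the unfolded protein response list was 11.58 to 11.75, against 12.19 to 12.45 in WT.

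Promoters of 4 of the lowered genes are shown because they hold matches to the ER stress response element, which ATF6 is known to bind. Capitals mark matches to this element, written as CCAAT, any 9 bases and CCACG, on either strand, again 5′ to 3′ on the strand of the gene, from RefSeq on GRCm38.p6.
Hspa5: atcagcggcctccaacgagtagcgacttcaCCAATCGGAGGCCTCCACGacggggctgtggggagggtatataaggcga
Creld2: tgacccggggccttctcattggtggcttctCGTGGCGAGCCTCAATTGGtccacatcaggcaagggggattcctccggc
Syvn1: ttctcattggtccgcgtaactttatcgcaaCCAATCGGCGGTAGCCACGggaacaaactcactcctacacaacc
Dnajc3: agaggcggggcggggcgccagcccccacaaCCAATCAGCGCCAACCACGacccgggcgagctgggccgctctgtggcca
The Hspa5 window is chr2:34771995-34772073, the Creld2 window chr15:88819490-88819568, the Syvn1 window chr19:6046502-6046575 and the Dnajc3 window chr14:118937797-118937875, all on the plus strand. The matches begin 65, 126, 44 and 105 bases before the start. Among 24 response genes whose promoter was found, 8 held the element (33.3%), against 39 of 32851 promoters (0.119%). It was in 5 of 15 called and 3 of 9 genes that were not called, and its matches overlapped no match to the ISRE or the heat shock motif described further on. Elements that lie outside the window were not read.

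The fall reached the machinery around the chaperones, on 5 further lists that were drawn up after the values were seen. At the translocation channel and signal peptidase 11 of 26 genes were lower, with a median of -0.35, among them Spcs2, a signal peptidase subunit (log2 -0.65, SE 0.0961, adjusted p = 0.00601), and Tram1 (-0.61). Of 22 genes of oxidative folding 8 were lower, led by Txndc11 (-1.02). Of 31 genes of N-glycosylation 8 were lower, among them Stt3a, a catalytic subunit of oligosaccharyltransferase, with 4689, 5043 and 4827 normalized reads in Samhd1 KO, against 6634, 6836 and 7073 in WT. The change was small and the libraries tight (log2 -0.50, SE 0.0609, adjusted p = 0.00259). In transport from ER to Golgi 6 of 34 genes were lower, including the COPII coat gene Sec24d (-0.91) and Bet1 (-0.82). Of 26 genes of ER-associated degradation 6 were lower, with Derl3 at -1.15, and 2 were higher, Svip (0.71) and Rnf139 (0.33). Over the unfolded protein response and these 5 lists, 55 of 166 genes were lower and 3 higher, beside 1.62% and 2.71% of all genes. The 55 made up 25.7% of all lower calls, a share that depends on how the 5 lists were chosen. Creb3l2, which encodes an ER-bound transcription factor of secretion, stands on none of the lists and had 661, 729 and 678 normalized reads in Samhd1 KO, against 1359.7, 1459 and 1993 in WT (log2 -1.20, SE 0.204, adjusted p = 0.00878).

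These counts also leaned on single libraries. Of the 11 lower translocation genes 5 were called in all 12 fits without 1 library, of the 8 oxidative folding genes 3, of the 8 N-glycosylation genes 2, of the 6 transport genes 2, and of the 6 degradation genes 0. Spcs2, Tram1, Txndc11, Stt3a, Sec24d, Bet1 and Creb3l2 were called in each of the 12. With the B cell score as a covariate the lists gave 0, 0, 1, 0 and 0 lower calls in the same order.

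Genes of heat shock chaperones fell as well. Of 34 entries, Hspa14 being entered under 2 identifiers and Dnajb9 also on the list above, 12 were lower and 0 higher, with a median of -0.32. Hspa1b, an inducible Hsp70, had 36.3, 55.7 and 43.4 normalized reads in Samhd1 KO, against 165, 156 and 304 in WT. All knockouts were below WT, and WT replicate 3 was highest (log2 -2.13, SE 0.326, adjusted p = 0.00643). Its near-identical copy Hspa1a stood at -1.39, and reads of the pair may be shared. Hsph1, a nucleotide exchange factor of Hsp70, had 1039, 955 and 735 normalized reads in Samhd1 KO, against 1846, 2129 and 2758 in WT (log2 -1.30, SE 0.226, adjusted p = 0.00936). Hspa8, the constitutive Hsp70, stood at -0.67 and Chordc1, an Hsp90 co-chaperone, at -0.57. Hsf1, which drives these genes, stood at -0.10 (adjusted p = 0.615). The list gave 6 and 7 lower calls without Samhd1 KO replicate 2 or 3, 7 and 6 without WT replicate 2 or 3, and 0 with the B cell score as a covariate, where the median change was -0.26. Of 28 promoters found, Hspa14 counting under both identifiers, 5 held the heat shock motif (17.9%), against 0.603% of all promoters. The motif was written as GAA, TTC and GAA with any 2 bases between neighbours, on either strand. Of the 5 genes Hsph1 and Chordc1 were called lower, and Hspd1, Hspe1 and Dnajb6 were not.

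The other genotypes labelled as lacking Samhd1 differed between the ER and interferon programmes. Hspa5 averaged 20057 normalized reads in Samhd1 KO. Its mean was 23871 with Cardif also missing, 17669.7 with Sting also missing, and 42266 in WT. Herpud1 averaged 1843 in Samhd1 KO, 1863 in the Cardif dKO, 1756 in the Sting dKO, and 4458 in WT. Of the 27 unfolded protein response genes limma called 0 between Samhd1 KO and either dKO group, in either direction. Over all genes it called 0.144% higher and 0.0% lower against the Cardif dKO, and 2.89% higher and 2.77% lower against the Sting dKO. The 27 genes had median changes, Samhd1 KO minus dKO, of -0.09 (Cardif) and 0.01 (Sting). For Hspa5 that difference was -0.24 (SE 0.136) from Samhd1 Cardif dKO and 0.19 (SE 0.136) from Samhd1 Sting dKO. Interferon genes went another way: Oas3 averaged 2622 in Samhd1 KO, 1057 in the Cardif dKO, 386 in the Sting dKO, and 725 in WT. Of the 100 interferon response genes, Samhd1 KO was higher than Samhd1 Cardif dKO in 6 and than Samhd1 Sting dKO in 73, beside 0.144% and 2.89% of all genes. The medians over those 100 genes, Samhd1 KO minus dKO, were 0.58 (Cardif) and 0.87 (Sting), and limma called 19 genes in all higher against the Cardif dKO. WT was the only group not labelled as lacking Samhd1, so for the ER and heat shock genes any other property of the WT libraries cannot be told apart from the genotype.

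**Figure D4:**
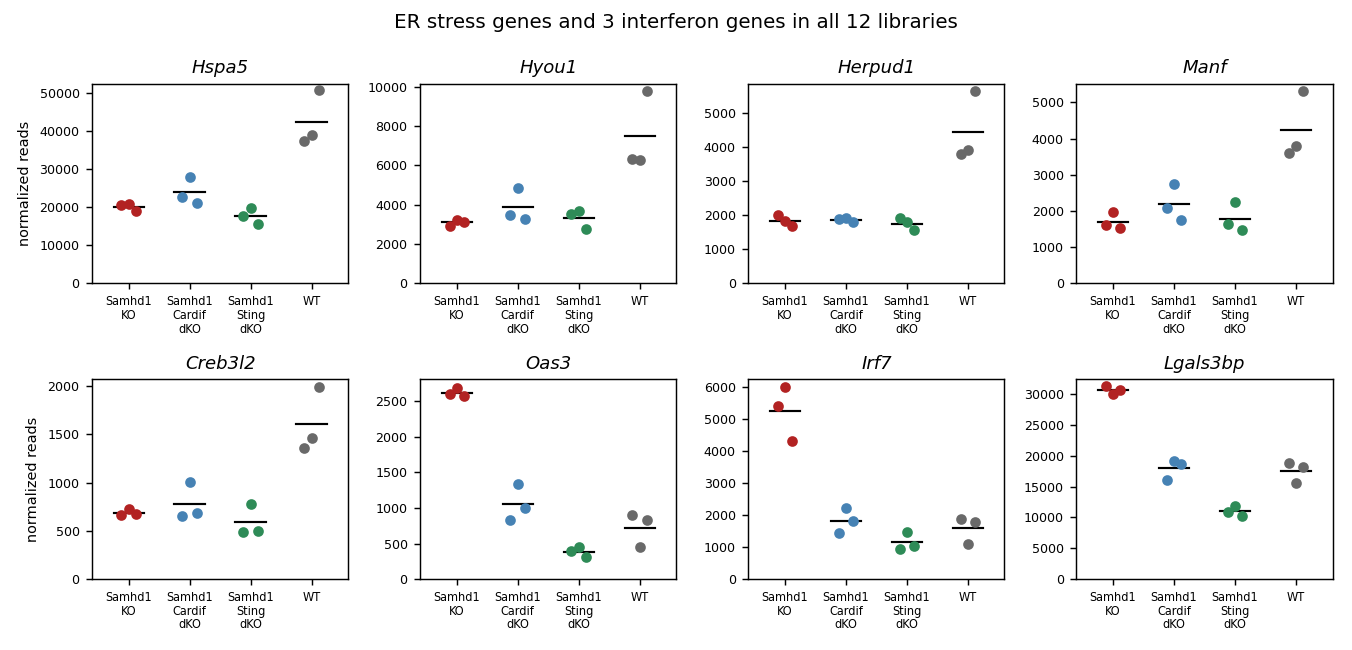
Normalized reads (vertical axis, from 0) of 5 ER genes and 3 interferon genes in all 12 libraries, with 1 dot per library and a line at the group mean, in the order Samhd1 KO, Samhd1 Cardif dKO, Samhd1 Sting dKO and WT. In Hspa5 the 9 libraries labelled as lacking Samhd1 lie below all 3 WT libraries, whereas in Oas3 the Samhd1 KO libraries (2578 to 2689) lie above all others.

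Ptprd, a receptor tyrosine phosphatase gene, gave the largest fitted fall. It was listed at 0 in all 3 Samhd1 KO libraries, against 112, 76.4 and 40.02 normalized reads in WT. That is at least 81.5-fold lower when 3 reads over the group are taken as the floor. In Samhd1 Cardif dKO it had 1.02, 0 and 0, and in Samhd1 Sting dKO 0, 1.12 and 0. The gene averaged under 50 reads and was singled out after its values were seen. Its call was kept in all 12 fits without 1 library.

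Further falls lay outside the stress genes. Cdkn2a, the locus of the cell cycle inhibitors p16 and p19ARF, had 108, 146 and 128 normalized reads in Samhd1 KO, against 351, 402 and 354 in WT. The groups were clearly apart (log2 -1.54, SE 0.220, adjusted p = 0.00506), and its neighbour Cdkn2b stood at -0.98. Of 21 genes of cell cycle inhibitors and quiescence 2 were lower, Cdkn2a among them (9.52%, beside 1.62% of all genes). Of these 2, 1 was called in every fit without 1 library, and 0 with the B cell score as a covariate. Rgs1, a brake on G protein signalling, had 138, 69.2 and 101 normalized reads in Samhd1 KO, against 436, 531 and 205 in WT (log2 -1.87, SE 0.336, adjusted p = 0.011). Fscn1, an actin-bundling gene, had 938, 1122 and 1306 normalized reads in Samhd1 KO, against 4854, 2456 and 4181 in WT (log2 -1.73, SE 0.352, adjusted p = 0.0194), with the call lost without Samhd1 KO replicate 1 or 2 or WT replicate 1 or 3. The Fscn1 call was also lost with the B cell score as a covariate. Zfp9 stood at -1.84, Cd63, a tetraspanin of late endosomes, at -0.99, and the oxysterol receptor gene Gpr183 at -1.33. Of 33 immediate early genes 3 were lower (Gem, Rgs1 and Dusp6) and 2 higher, Junb (0.65) and Klf4 (0.95), so this list did not move 1 way. Of the 3 falls 1 and of the 2 rises 0 were called in every fit without 1 library. With the B cell score as a covariate 0 of either were called.

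Several further genes were higher. Cyp26b1, which degrades retinoic acid, had 265, 298 and 215 normalized reads in Samhd1 KO, against 83.3, 91.7 and 102 in WT (log2 1.47, SE 0.246, adjusted p = 0.00844), and Aldh1a2, which makes it, rose by 0.69. Abcg1, a cholesterol exporter, rose by 1.01 and Tcfeb, now named Tfeb, a lysosome regulator, by 0.70, each called in 8 of the 12 fits without 1 library. Of 32 genes of deoxynucleotide metabolism, the pathway in which SAMHD1 acts, 2 were higher and 1 lower, with a median of -0.04. These were 6.25% and 3.13%, beside 2.71% and 1.62% of all genes. The 2 rises were Dck, the deoxycytidine kinase gene (log2 0.91, SE 0.189, adjusted p = 0.0212), and the interferon-induced Cmpk2 (log2 1.14, SE 0.204, adjusted p = 0.0107). Of the 2, 1 was called in every fit without 1 library, and 1 with the B cell score as a covariate. Acsl1 (0.57) and Ppard (0.50) were higher on the list of fatty acid oxidation. C130026I21Rik, a gene model whose role is not described here, had 2182, 2082 and 1301 normalized reads in Samhd1 KO, against 526, 451 and 365 in WT (log2 2.03, SE 0.266, adjusted p = 0.00325).

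Housekeeping lists gave few calls. Of 36 constitutive proteasome genes 0 were called by limma, with 1 higher at an unadjusted p under 0.05 and a median of -0.03. Of 70 oxidative phosphorylation genes 0 were called by limma, with 9 lower at an unadjusted p under 0.05, 61 negative changes and a median of -0.14. For 16 of the 70 all Samhd1 KO libraries were under all WT libraries, against 12.9% of all genes. Of 77 cytosolic ribosomal protein genes 3 were lower, among them Rpl10 and Rps25, with a median of -0.15. The change was negative in 71 of the 77, with an unadjusted p under 0.05 in 24 of these. In 37 the knockout libraries were all under WT. Of 52 lysosome genes 1 was higher and 1 lower. All 67 mitosis genes had a positive change (median 1.15), but 0 were called by limma and 2 had an unadjusted p under 0.05. Their mean log2 level was 7.20, 8.97 and 9.07 in the Samhd1 KO libraries, against 7.43, 8.43 and 6.12 in WT, so the groups overlapped.

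Markers of other cells were read beside these results. Of 36 large peritoneal macrophage genes 1 was called, Bhlhe40, a factor of macrophage self-renewal (log2 0.77, SE 0.119, adjusted p = 0.00643). Of 26 genes that mark small peritoneal macrophages, monocytes or dendritic cells, 3 rose: Treml4, Fcgr4 (1.06) and Zbtb46 (1.08), and Cd209a was lower. Of 12 mast cell, eosinophil and basophil markers 3 were lower, all mast cell proteases. Cma1 had 1.65, 0 and 2.83 normalized reads in Samhd1 KO, against 29.4, 34.4 and 76.3 in WT, and Tpsb2 and Mcpt4 were likewise near 0 in the knockout. The mean log2 level of that list was 4.37 to 4.82 in Samhd1 KO and 5.77 to 6.40 in WT, without overlap. Its summed level, 10530.4 to 12809 in Samhd1 KO and 12105 to 14383 in WT, overlapped. None of these 3 higher and 4 lower calls was made in every fit without 1 library or with the B cell score as a covariate. The part of these cells in the other results was not tested. T and NK cell markers gave 0 calls of 6, with 1 lower at an unadjusted p under 0.05. Neutrophil markers gave 1 of 9, Prtn3 (0.70).

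**Figure D5:**
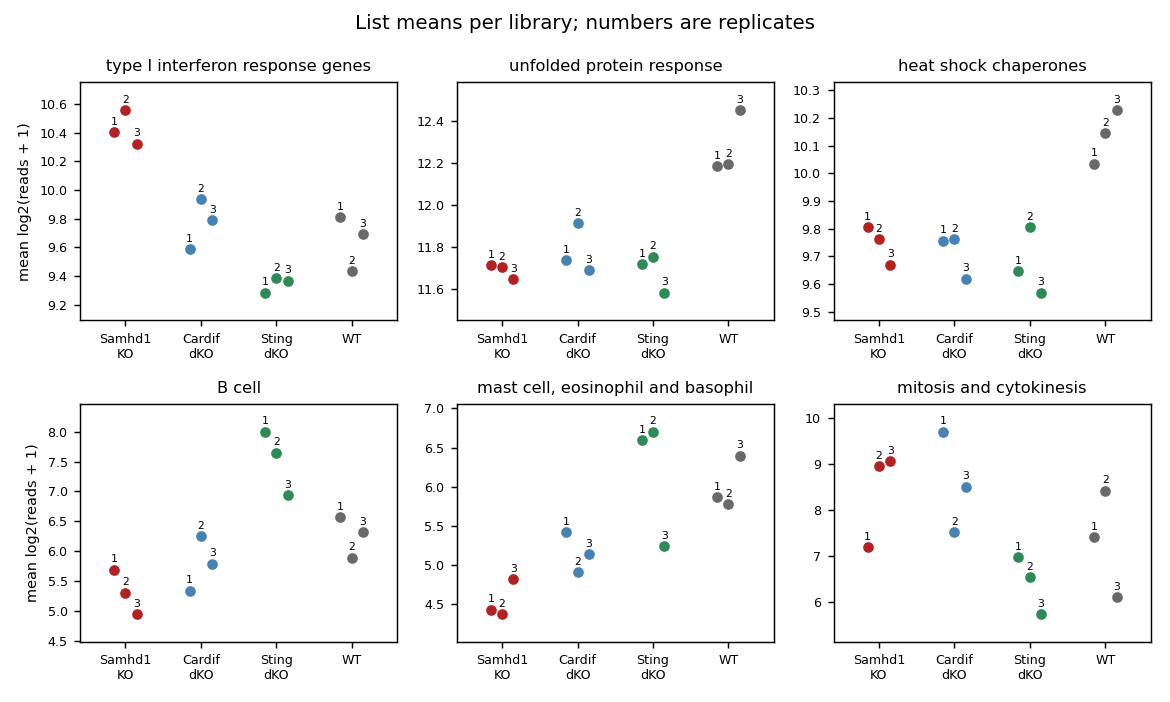
Mean log2(normalized reads + 1) of 6 lists in each of the 12 libraries (vertical axis), with replicate numbers beside the dots, in the order Samhd1 KO, Samhd1 Cardif dKO, Samhd1 Sting dKO and WT. The unfolded protein response mean is 11.65 to 11.72 in Samhd1 KO and 12.19 to 12.45 in WT, while the B cell mean is highest in Samhd1 Sting dKO (6.94 to 8.003).

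Called genes also lay side by side on the chromosomes. By the gene order of RefSeq on GRCm38.p6, 77 of 355 placed higher genes stood next to another higher gene among the genes tested, in 28 runs. Of all genes 2.71% were called higher. The longest runs held 5 genes each: Gm16340, Mndal, Mnda, Ifi203 and Ifi205 on chromosome 1, Gbp8, Gbp9, Gbp4, Gbp6 and AC113980.1 (now named Gbp11) on chromosome 5, and a run around Phf11 and Setdb2 on chromosome 14. Of 211 placed lower genes 28 stood next to another, in 14 runs of which the longest held 2 genes, beside 1.62% of all genes called lower. Entries of 1 gene under 2 identifiers, and neighbours whose reads cannot be told apart, such as Cfb and C2, were not merged. How many neighbours the share of calls alone would give was not tested. Among the 40 tested genes on each side of Samhd1, 2 were called, Ncoa6 higher and Edem2 lower, beside 4.32% of all genes called in either direction.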

How the data were processed

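RNA was sequenced from sorted peritoneal macrophages after poly-dT enrichment, with a strand-specific protocol, per the labels' protocols. The deposited values are a signal per gene, the reads that the authors counted divided by 1 size factor per library, on mm9 with Ensembl gene models. Tools named in the submitters' processing notes are bedtools 2.16.2 and DESeq 1.6.1. No aligner is named in the sources used here. Dividing a library by its smallest value gave whole numbers for 100% of values (tolerance 0.0001 reads), taken as the depth and as the counts for edgeR and DESeq2. Every gene of the table has at least 1 read over the dKO libraries. Genes without one are not analysed here. The deposited transcript length, another column by the authors, was used only as a label.

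Values were tested as log2(normalized reads + 1), which understates changes of genes with few reads. One linear model over 12 libraries in 4 groups was fitted (limma 3.58.1, R 4.3.3), using a trended variance and 8 residual degrees of freedom, and adjusted by Benjamini-Hochberg over 13231 genes. The median SE was 0.135. On simulated data with known changes in this comparison, 49.3% of 1.5-fold, 74.6% of 2-fold and 98.5% of 4-fold changes were called, and 8 of 156 calls were on unchanged genes. Counts were drawn independently for each gene, and changed genes were picked only above a minimum read level. Variation that genes share within a library was left out, so these rates may not hold for the real libraries. The members and lists were chosen with earlier results of these data known, and 7 lists were added after the values were seen. Named were Samhd1, the 15 largest rises and falls and the 10 most abundant called genes (mean of at least 50 normalized reads, no overlap), and up to 6 genes of each list by p. Other genes in the text were chosen after their values were seen. Some called genes are not reported here. Promoters were matched to RefSeq for 73.5% of the tested genes, under 80%, so no motif share over all tested or all called genes is given. Alternatives were edgeR 4.0.16, DESeq2 1.42.0, TMM factors, other filters and pseudocounts, covariates, a replicate block, the 6 libraries alone and leaving out each library.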

Additional observations from a re-analysis of the deposited data

How the results depend on the processing

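The count of 572 called genes (358 higher, 214 lower) was 1074 (654 and 420) with DESeq2 and 60 (54 and 6) with the B cell score as a covariate; 56 of these 60 are among the 572. Leaving out 1 library gave 185 to 610 calls, 128 to 382 higher and 57 to 228 lower. Type I interferon response genes gave 31 to 64 calls without 1 library and 22 with the B cell score, heat shock chaperones 6 to 13 and 0, and unfolded protein response genes 9 to 17 and 1. edgeR on the recovered reads called 612 genes. With it and the other settings (TMM factors, filters, pseudocounts, age or a cell cycle score as a covariate, the 6 libraries alone) these counts stayed within 1.5 times. Replicate numbers did not pair the libraries: deviations of same-numbered Samhd1 KO and WT libraries correlated at 0.06, 0.37 and -0.21, and not every library correlated best with its own number. With the number as a replicate block 504 genes were called (315 higher, 189 lower), 452 of them among the 572, with 49 interferon, 16 unfolded protein response and 11 heat shock genes. Over the named genes and list counts, 8142 values kept their call, 181 gained one, 697 lost it, and no value changed sign while called. At this depth, genes with few reads carry the widest errors.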

Other observations

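Immune surface and cell death genes moved in small numbers. Of 23 costimulation and checkpoint genes 3 were higher: Ly9, a SLAM receptor (1.08), Cd40 (0.62) and Cd274, which encodes PD-L1 (1.19). Of 36 genes of inflammasomes and cell death 4 were higher (11.1%, beside 2.71% of all genes). They were Zbp1 (1.36), Xaf1 (0.81), the necroptosis effector gene Mlkl (0.59) and the BH3-only gene Bid (0.46). Of the 4, 1 was called in every fit without 1 library, and 1 with the B cell score as a covariate. All 8 Gimap genes, GTPases of lymphocytes and other blood cells, had a negative change (median -0.95), but Gimap6 alone was called (log2 -0.87, SE 0.221, adjusted p = 0.0468). Of 43 p53 targets and DNA damage genes 1 was lower, Plk3 (-0.75), a share of 2.33% beside 1.62% of all genes. Neither Gimap6 nor Plk3 was called in every fit without 1 library or with the B cell score as a covariate. Of 17 glucocorticoid-responsive genes 0 were called by limma, with 3 lower at an unadjusted p under 0.05.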
